A study of Mus musculus with 14 samples.

Results

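The genes described here are 8 members of the insulin-like growth factor (IGF) system, the ligand gene Igf1, the receptor gene Igf1r and the binding protein genes Igfbp2 to Igfbp7, out of 24454 genes in the count table. They were taken by name, after the Entrez identifiers of the table had been matched to mouse gene symbols. The rule uses no measured value, but the members and the gene lists below were chosen with earlier results of these data known. RNA-seq reads had been counted per gene, without normalization, in 14 libraries from 5 FACS-sorted populations of the mouse forelimb bud. All cells carried a Sox9 IRES-EGFP allele, which reports Sox9 expression by green fluorescence, on a mixed Swiss Albino background. Dead cells and cells with blood, endothelial or epithelial surface markers had been gated out of every sort. S9-JAG1+ limb mesenchymal progenitors (LMPs; Sox9-negative, JAG1-positive and SCA-1-negative), S9-Pαhi LMPs (negative for Sox9, JAG1 and SCA-1 and high in surface PDGFRα) and S9+Pαhi osteo-chondrogenic progenitors (OCPs) had 3 libraries each from E10.5. S9-SCA-1+ cells (Sox9-negative, JAG1-negative, SCA-1-positive), also from E10.5, had 2 libraries, numbered 2 and 3. The chondroblasts (S9+COL2+, 3 libraries) came from E11.5, and their labels give the same Sox9 and PDGFRα gate as for OCPs and none for Col2a1. Stage and cell type cannot be told apart in comparisons with them. Each library was made from the pooled buds of several embryos of both sexes. The study calls its libraries biological replicates, but the labels do not say that they came from separate pools, so p-values measure the spread between these libraries, which may be partly technical.

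IGF1 and IGF2 are secreted growth factors that promote the growth and survival of embryonic cells by activating IGF1R, a tyrosine kinase receptor at the cell surface that signals through PI3K, AKT and MAP kinases. The IGF-binding proteins are secreted too, and hold IGFs in the tissue fluid and matrix, where they can keep the ligands from the receptor or store them until a protease cuts the binding protein. IGF signals promote the growth of cartilage in the developing limb.

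The members lie at separate places in the genome, apart from 1 pair. By RefSeq positions on GRCm38 (mm10), Igf1 (Entrez 16000) spans 87858265 to 87937047 of chromosome 10 and Igf1r (16001) 67952257 to 68233668 of chromosome 7, both on the plus strand. Igfbp2 (16008; chromosome 1, 72824480 to 72852474, plus) and Igfbp5 (16011; chromosome 1, 72858065 to 72874865, minus) are neighbours with 5590 bases between them. Igfbp3 (16009; 7206086 to 7215498, minus) and Igfbp4 (16010; 99040005 to 99052655, plus) are both on chromosome 11, far apart. Igfbp6 (16012) lies on chromosome 15 from 102144186 to 102149512 on the plus strand, and Igfbp7 (29817) on chromosome 5 from 77349240 to 77408045 on the minus strand. The coding sequences of the binding proteins share a cysteine-rich stretch near the amino end, part of the domain that binds IGF. The stretch is shown to let the 4 abundant binding protein genes be compared as sequences. It was searched in the coding transcripts of GENCODE M21 by the codon pattern of the conserved cysteine motif, and the codons of its 4 cysteines are in capitals.
Igfbp2: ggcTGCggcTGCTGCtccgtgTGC
Igfbp3: ggcTGCggcTGCTGCctgactTGC
Igfbp4: ggcTGCggtTGTTGCgccactTGC
Igfbp5: ggcTGTggcTGCTGCatgactTGC
All 4 stretches lie in coding exon 1 of their gene, at chr1:72824778-72824801 (plus) for Igfbp2, chr11:7213566-7213589 (minus) for Igfbp3, chr11:99041650-99041673 (plus) for Igfbp4 and chr1:72873966-72873989 (minus) for Igfbp5, on GRCm38. Of their 24 bases, 17 to 22 were identical between the genes of a pair, with the highest identity between Igfbp3 and Igfbp5. Much of this identity was set in advance, because the search pattern fixes many of these bases. The pattern was not found in the reading frame of Igfbp6 or Igfbp7. It also asks for glycine codons beside the cysteine codons, so a stretch with the same cysteines and other codons there would be missed. IGFBP7 is known as a distant relative of the others that binds IGFs only weakly.

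Levels are given as CPM, counts scaled to library totals of equal size, on library sizes scaled by the TMM method. Total counts per library ranged from 20316583 to 29162751. Up to 3 counts in a library, which is 0.101 to 0.149 CPM, was taken as a level that cannot be told from absence, a limit that covers counting error only. Of the genes of the reporter and surface markers, Sox9, Jag1 and Ly6a followed the sorts, and Pdgfra did so only in part. Mean Pdgfra in S9-Pαhi LMPs (443 CPM) was above S9-JAG1+ LMPs (247 CPM) but below OCPs (718.5 CPM) and chondroblasts (864 CPM). It was lowest in S9-SCA-1+ cells (34.4 CPM), although the paper sorted these from PDGFRα-positive cells. Sox9 was at 411 to 625 CPM in OCPs and chondroblasts and at 7.41 to 65.5 CPM elsewhere, Jag1 was highest in S9-JAG1+ LMPs (228 to 364 CPM, against 102 to 137 CPM in chondroblasts and at most 21.3 CPM elsewhere) and Ly6a, which encodes SCA-1, in S9-SCA-1+ cells (3.10 and 3.36 CPM, against at most 0.406 CPM elsewhere). In S9-SCA-1+ cells 7 of 7 myoblast markers were above 3 counts, and their sum was 1501 and 1504 CPM, against 1.93 to 11.4 CPM in the other libraries. Replicate 3 of these cells also stood apart by its sum of 7 erythroid markers, 3226 CPM, against 116 CPM in replicate 2 and 2.54 to 73.3 CPM elsewhere. The 6 leukocyte markers summed to at most 0.890 CPM in every library, with 0 to 3 of them above 3 counts. The 8 endothelial markers summed to 21.6 and 26.0 CPM in S9-SCA-1+ cells (7 to 8 of them above 3 counts), against 9.23 to 18.5 CPM elsewhere (6 to 8). The marker lists of neural crest and ectoderm were highest in chondroblasts, as were Igfbp3 and Igfbp5. The 6 neural crest and Schwann markers summed to 46.6 to 53.8 CPM in chondroblasts (5 to 6 of them above 3 counts) and 26.9 to 33.2 CPM in OCPs (5 to 6), against 12.8 to 19.6 CPM elsewhere (2 to 5). The 8 ectoderm markers summed to 19.9 to 23.3 CPM in chondroblasts (5 to 8 above 3 counts) and 12.7 to 14.9 CPM in OCPs (5 to 6), against 6.16 to 11.6 CPM elsewhere (3 to 7). The part of such cells in the levels of Igfbp3 and Igfbp5 was not tested. In bulk RNA, fewer cells with a transcript and less of it per cell cannot be told apart, for these markers and for all genes below.

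The 5 population means were estimated together for the 15125 genes left by a filter on low counts. Calls needed an adjusted p up to 0.1 and a log2 fold change of 1.2 or more in size, the limits of the study. All 8 members passed the filter, Igfbp6 only through its counts in OCPs, and Igfbp6 is therefore given by its counts and supports nothing here. In the joint test over the 5 populations 6 of the 7 members without Igfbp6 were called, all but Igf1r (7 of 8 with Igfbp6), against 29.2% of all tested genes. The largest difference between any 2 populations had a median log2 size of 1.72 over the 7 members without Igfbp6 and 0.75 over all tested genes. Over the 10 pairs of populations, 29 of 80 member and pair combinations were called, or 25 of 70 without Igfbp6 (35.7%), against 11.8% over all genes and pairs. The calls were unequal among members, with 8 of 10 pairs for Igfbp3, 7 for Igfbp5, 6 for Igf1, 2 for Igfbp2, 1 each for Igfbp4 and Igfbp7 and none for Igf1r. Of the calls for Igf1, that of S9-SCA-1+ cells below chondroblasts (log2 fold change -1.21, adjusted p = 0.0648 in edgeR) was kept in 8 of 21 alternative analyses and lost with DESeq2 (adjusted p = 0.120). The call of Igfbp5 in OCPs above S9-JAG1+ LMPs (1.54) was lost without S9-JAG1+ replicate 2 (1.17) or 3 (1.19).

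**Figure D1:**
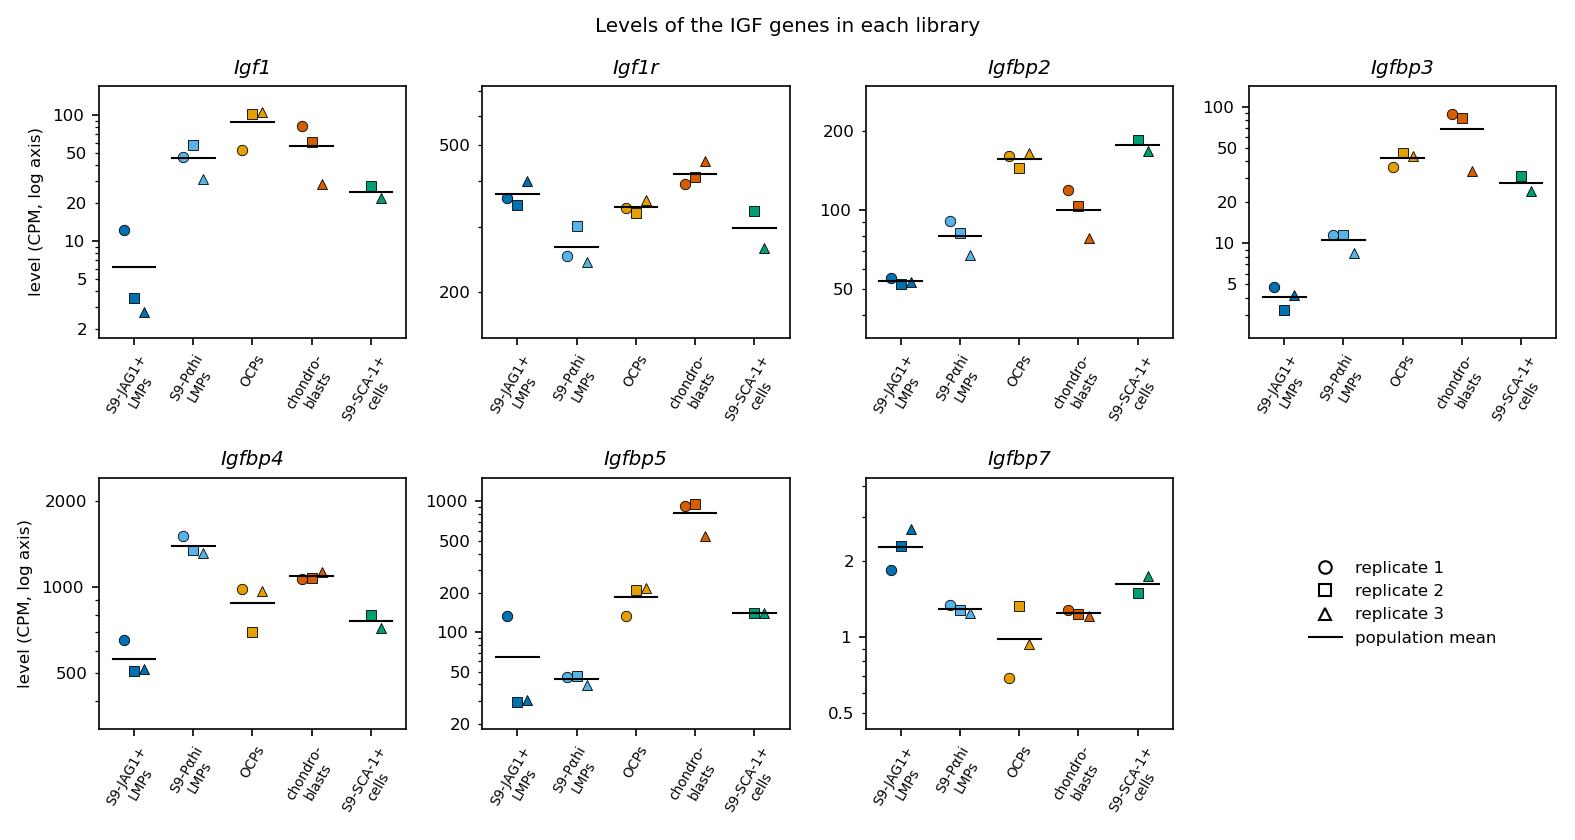
Level in CPM (log axis) of 7 members in each library, with a symbol for each replicate number and a line at the mean of each population (n = 3, S9-SCA-1+ cells n = 2). Igf1 and Igfbp3 are lowest in S9-JAG1+ LMPs, Igfbp5 is highest in chondroblasts, the libraries of Igf1r lie within 242 to 452 CPM, and replicate 1 of S9-JAG1+ LMPs lies apart from the other two for Igf1 and Igfbp5.

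Igf1, the ligand, was at 12.2, 3.52 and 2.74 CPM in S9-JAG1+ replicates 1 to 3, and at 46.7, 58.1 and 30.7 CPM in S9-Pαhi LMPs. It was at 53.1, 102 and 106 CPM in OCPs, and at 82.0, 60.5 and 28.2 CPM in chondroblasts. The S9-SCA-1+ replicates 2 and 3 had 27.2 and 22.0 CPM. All S9-JAG1+ libraries were thus below every other library, while OCPs, chondroblasts and S9-Pαhi LMPs overlapped. The counts behind these values were 69 to 286 in S9-JAG1+ LMPs and 617 to 2933 elsewhere. In S9-JAG1+ LMPs (6.17 ± 5.28 CPM, SD, n = 3) Igf1 was 7.90-fold lower than the mean of the other 4 populations (log2 fold change -2.98, SE 0.47, adjusted p = 0.000158 in the edgeR quasi-likelihood test, Benjamini-Hochberg adjustment). Without replicate 1, the highest of the S9-JAG1+ libraries, the log2 fold change was -3.95 (SE 0.47). OCPs had the highest mean (87.1 ± 29.5 CPM, n = 3), and were called higher than the other populations by a log2 fold change of 1.80 (SE 0.33, adjusted p = 0.00145, same test). Chondroblasts, at 56.9 ± 27.1 CPM, were not called (1.04, SE 0.35, adjusted p = 0.0193, same test), but passed the fold change limit without their own replicate 3 (1.33) or without S9-JAG1+ replicate 1 (1.28). In the order of levels, OCPs and chondroblasts (edgeR adjusted p = 0.338), chondroblasts and S9-Pαhi LMPs (0.570), and S9-Pαhi LMPs and S9-SCA-1+ cells (0.263) did not differ beyond their spread, and the step from S9-SCA-1+ cells to S9-JAG1+ LMPs was called (log2 fold change 2.00, SE 0.54, adjusted p = 0.0138, edgeR quasi-likelihood test, Benjamini-Hochberg adjustment). S9-SCA-1+ cells were called lower than OCPs (-1.82, SE 0.54, adjusted p = 0.0167, same test), a call that was lost without S9-SCA-1+ replicate 3 at a similar log2 fold change (-1.68, SE 0.74, adjusted p = 0.123), with the lone S9-SCA-1+ library taken to vary like the other groups.

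Igf1r, the receptor, was at similar levels everywhere. It was at 360.1, 345 and 401 CPM in S9-JAG1+ LMPs, and at 251, 302 and 242 CPM in S9-Pαhi LMPs. OCPs had 338, 327 and 355 CPM, and chondroblasts 393, 411 and 452 CPM. The S9-SCA-1+ libraries had 332 and 264 CPM. Neighbours in the order of means (chondroblasts, S9-JAG1+ LMPs, OCPs, S9-SCA-1+ cells, S9-Pαhi LMPs) overlapped in each of the 4 steps, with adjusted p between 0.145 and 0.409 (edgeR quasi-likelihood test, Benjamini-Hochberg adjustment). The ends of the order did not overlap. The largest difference, between chondroblasts (419 ± 30.3 CPM) and S9-Pαhi LMPs (265 ± 32.3 CPM, n = 3 each), had a log2 size of 0.66, and the populations differed jointly with an adjusted p of 0.000724 in the same test, below the fold change limit for a call. By p alone 74.8% of all tested genes differed among the populations. Against the mean of the other 4, Igf1r had a log2 fold change of 0.41 (SE 0.08) in chondroblasts and -0.42 (SE 0.09) in S9-Pαhi LMPs, and of 0.18, 0.03 and -0.20 in S9-JAG1+ LMPs, OCPs and S9-SCA-1+ cells.

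**Figure D2:**
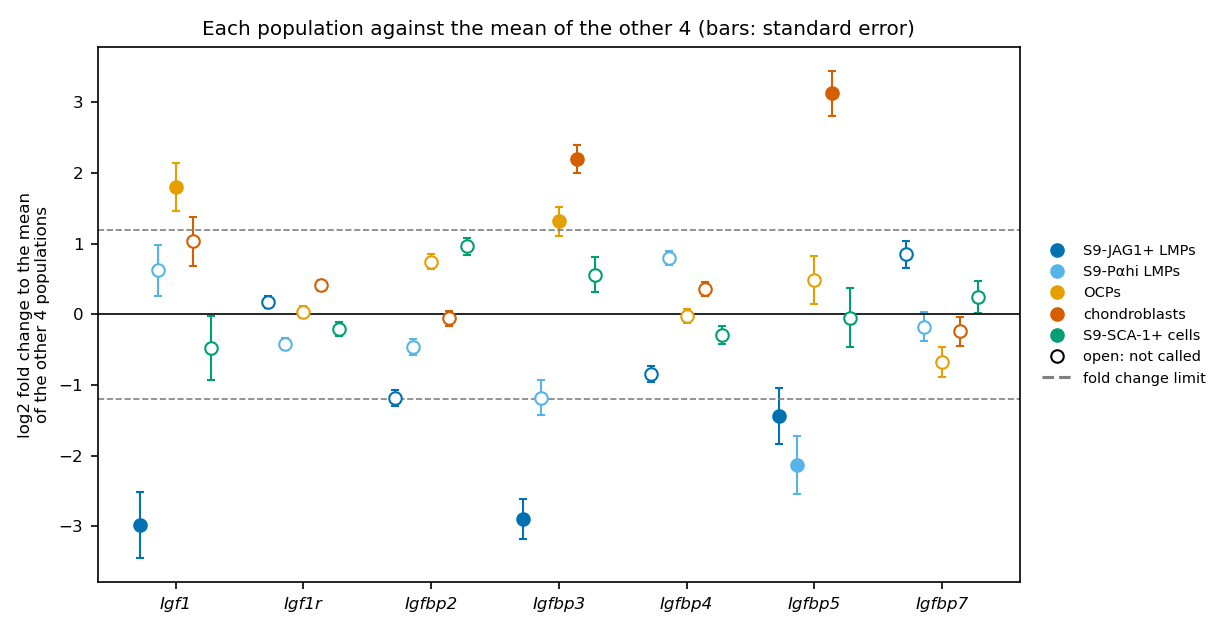
Log2 fold change of 7 members in each population against the mean of the other 4, with bars for the standard error, filled points for called values and dashed lines at the fold change limit of 1.2. The called values are Igf1 (-2.98), Igfbp3 (-2.90) and Igfbp5 (-1.44) in S9-JAG1+ LMPs, Igfbp5 (-2.13) in S9-Pαhi LMPs, Igf1 (1.80) and Igfbp3 (1.31) in OCPs, and Igfbp3 (2.20) and Igfbp5 (3.13) in chondroblasts.

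Each population was then compared with the mean of the other 4. In S9-JAG1+ LMPs 4 of 8 members were called lower and none higher, against 7.7% of tested genes called lower and 2.88% called higher. Without Igfbp6 these were 3 of 7, and the median log2 fold change of the 7 members was -1.19, against -0.01 over all tested genes. In S9-Pαhi LMPs 1 member was called, lower (2.31% of all genes), with a median over 7 members of -0.42. In OCPs 3 members were called higher (3.37% of all genes), or 2 without Igfbp6, with a median of 0.49. In chondroblasts 3 members were called higher (11% of all genes), or 2 without Igfbp6, with a median of 0.41. In S9-SCA-1+ cells (n = 2) no member was called by edgeR or by DESeq2, against 4.46% of all genes called higher and 6.8% called lower, and 3 of 8 members had an unadjusted p under 0.05 in edgeR. The comparisons share libraries, and a population that is low pulls the others up in them.

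Igfbp3, whose protein is the main IGF carrier of adult blood, differed in most pairs. Its levels were 4.75, 3.27 and 4.16 CPM in S9-JAG1+ LMPs, and 11.55, 11.4 and 8.47 CPM in S9-Pαhi LMPs. OCPs had 36.1, 46.0 and 43.7 CPM, and chondroblasts 88.5, 83.2 and 33.8 CPM. The S9-SCA-1+ libraries had 31.3 and 24.005 CPM. Each of the S9-JAG1+ libraries lay below each S9-Pαhi library, and both groups below all other libraries, while chondroblast replicate 3 lay below the OCP libraries. The mean in S9-JAG1+ LMPs, 4.06 ± 0.747 CPM (SD, n = 3), was 7.44-fold lower than in the other populations (log2 fold change -2.90, SE 0.28, adjusted p = 2.15e-06, edgeR quasi-likelihood test, Benjamini-Hochberg adjustment). OCPs (42.0 ± 5.17 CPM) were higher by a log2 fold change of 1.31 (SE 0.21, adjusted p = 0.000409, same test), and chondroblasts (68.5 ± 30.2 CPM) by 2.20 (SE 0.20, adjusted p = 5.77e-07, same test). S9-Pαhi LMPs (10.48 ± 1.75 CPM) had -1.18 (SE 0.25, adjusted p = 0.00543, same test), just inside the fold change limit, and were called under 7 of 22 alternative analyses. The step between chondroblasts and OCPs was not called (0.71, SE 0.27, adjusted p = 0.0655, same test), nor was that between OCPs and S9-SCA-1+ cells (0.60, SE 0.31, adjusted p = 0.138, same test). The 2 lower steps were called, with 1.39 (SE 0.31, adjusted p = 0.00402) from S9-Pαhi LMPs to S9-SCA-1+ cells and 1.37 (SE 0.32, adjusted p = 0.00635) from S9-JAG1+ to S9-Pαhi LMPs in the edgeR quasi-likelihood test, Benjamini-Hochberg adjustment. The former was lost, at an adjusted p of 0.0507 and a log2 fold change of 1.19, without S9-SCA-1+ replicate 2.

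Igfbp5, which encodes a binding protein that also attaches to extracellular matrix, had the largest difference of the members measured above the counting limit. It was at 929, 953 and 549 CPM in chondroblasts and at 132, 212 and 218 CPM in OCPs. The S9-SCA-1+ libraries had 139.6 CPM each. S9-Pαhi LMPs had 45.5, 46.3 and 39.8 CPM, and S9-JAG1+ LMPs 134, 29.2 and 30.2 CPM. Every chondroblast library was above every other library. Chondroblast replicate 3 was the lowest of its population for Igf1, Igfbp2, Igfbp3 and Igfbp5, and the highest for Igf1r and Igfbp4. Its sum of 8 chondrogenic markers was the highest, 3316 CPM, against 2195 and 2669 CPM in replicates 1 and 2. That sum was 1446 to 2038 CPM in OCPs. Whether these differences between chondroblast libraries are linked was not tested. S9-JAG1+ replicate 1, with 3137 counts against 697 and 763 in replicates 2 and 3, lay among the OCP libraries, whereas the other two lay below all S9-Pαhi libraries. Chondroblasts (810.3 ± 227 CPM, SD, n = 3) were 8.73-fold above the mean of the other 4 (log2 fold change 3.13, SE 0.31, adjusted p = 1.58e-06, edgeR quasi-likelihood test, Benjamini-Hochberg adjustment), and 4.32-fold above OCPs (188 ± 47.8 CPM; log2 fold change 2.11, SE 0.46, adjusted p = 0.00416, same test). S9-Pαhi LMPs (43.9 ± 3.55 CPM) were lower than the others, with a log2 fold change of -2.13 (SE 0.41, adjusted p = 0.00331, same test) and S9-JAG1+ LMPs (64.6 ± 60.4 CPM) had -1.44 (SE 0.39, adjusted p = 0.00907, same test). The call in S9-JAG1+ LMPs depended on the libraries. It was lost without replicate 2 (-1.08) or replicate 3 (-1.09) and with the E10.5 populations alone (-0.70), and was -2.55 (SE 0.23) without replicate 1. The order of the LMP populations turned with the same library. Igfbp5 was lower in S9-Pαhi than in S9-JAG1+ LMPs by a log2 fold change of -0.56 (SE 0.45, adjusted p = 0.432, same test) and higher by 0.56 (SE 0.24, adjusted p = 0.117) without S9-JAG1+ replicate 1. OCPs and S9-SCA-1+ cells did not differ beyond their spread (0.43, SE 0.50, adjusted p = 0.530, same test). With the E10.5 populations alone, OCPs were called higher for Igfbp5 (1.35, SE 0.36, adjusted p = 0.0134, same test).

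For these genes, high in chondroblasts, and for the most abundant binding protein gene Igfbp4, the 250 bases before the RefSeq start site (GRCm38.p6, 5′ to 3′ on the strand of the gene) are shown as the regulatory sequence nearest to the transcripts counted. The start is that of the reference transcript, which for Igfbp3 and Igfbp4 lies inside the span given above. Letters of a searched motif are in capitals.
Igfbp3: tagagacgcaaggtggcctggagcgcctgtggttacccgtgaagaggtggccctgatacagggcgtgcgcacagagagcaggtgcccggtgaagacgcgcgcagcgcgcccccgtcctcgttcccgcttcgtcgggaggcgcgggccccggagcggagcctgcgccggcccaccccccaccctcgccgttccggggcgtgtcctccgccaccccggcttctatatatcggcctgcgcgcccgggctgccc
Igfbp5: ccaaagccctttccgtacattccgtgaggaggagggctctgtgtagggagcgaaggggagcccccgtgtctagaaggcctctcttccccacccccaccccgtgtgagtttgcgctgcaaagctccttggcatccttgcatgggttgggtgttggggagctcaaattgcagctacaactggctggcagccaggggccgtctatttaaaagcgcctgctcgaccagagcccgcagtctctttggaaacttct
Igfbp4: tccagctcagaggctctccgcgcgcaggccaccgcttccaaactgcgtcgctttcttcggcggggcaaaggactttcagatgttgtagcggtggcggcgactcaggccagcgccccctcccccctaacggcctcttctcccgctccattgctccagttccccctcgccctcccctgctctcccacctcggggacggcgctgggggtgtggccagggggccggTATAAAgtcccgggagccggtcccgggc
They lie at chr11:7213924-7214173 (minus) for Igfbp3, chr1:72874866-72875115 (minus) for Igfbp5 and chr11:99040994-99041243 (plus) for Igfbp4. The Igfbp3 window held 32 CpG dinucleotides, that of Igfbp5 10 and that of Igfbp4 22, against a median of 6 over 32851 promoters. Searched on both strands were TATAAA (in 12.4% of all promoters), GGGCGG (32.7%), CCAAT (33.8%), AACAAT (9.42%), the core of SOX factor sites, CACGTG (6.02%) and TGACTCA (4.46%), and no match of one overlapped another. TATAAA was found in the Igfbp4 window and none of the 6 in those of Igfbp3 and Igfbp5, which says only that these letters are not in these windows.

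Igfbp2, which encodes a binding protein abundant in embryos, had its highest levels outside the LMPs. It was at 55.4, 52.5 and 53.6 CPM in S9-JAG1+ LMPs, and at 91.0, 82.0 and 67.5 CPM in S9-Pαhi LMPs. OCPs had 160.5, 145 and 165 CPM, and chondroblasts 119.7, 104 and 78.5 CPM. The S9-SCA-1+ libraries had 186 and 168 CPM. The S9-JAG1+ libraries lay close together and below all others, the S9-Pαhi and chondroblast libraries overlapped, and the OCP and S9-SCA-1+ libraries lay above all the rest. Against S9-JAG1+ LMPs (53.8 ± 1.44 CPM, n = 3) Igfbp2 was called higher in OCPs (157 ± 10.53 CPM; log2 fold change 1.54, SE 0.14, adjusted p = 1.07e-06, edgeR quasi-likelihood test, Benjamini-Hochberg adjustment) and in S9-SCA-1+ cells (177 ± 12.6 CPM, n = 2; 1.72, SE 0.15, adjusted p = 7.38e-07, same test). Against the mean of the other 4 populations S9-JAG1+ LMPs had -1.19 (SE 0.12, adjusted p = 2.50e-06, same test), just inside the fold change limit and called under 6 of 22 alternative analyses, S9-SCA-1+ cells 0.96 (SE 0.12, adjusted p = 1.74e-05, same test) and OCPs 0.75 (SE 0.10, adjusted p = 0.000144, same test). OCPs were above chondroblasts by 0.64 (SE 0.13, adjusted p = 0.00347, same test), under the fold change limit, and did not differ from S9-SCA-1+ cells beyond the spread (adjusted p = 0.384). Whether the myoblast transcripts in S9-SCA-1+ cells have a part in this level was not tested.

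Igfbp4 had the highest CPM of the members in every library. It was at 652, 511 and 517 CPM in S9-JAG1+ LMPs, and at 1513, 1349.8 and 1319.6 CPM in S9-Pαhi LMPs. OCPs had 985, 699.8 and 968 CPM, and chondroblasts 1068, 1076 and 1133 CPM. The S9-SCA-1+ libraries had 801 and 721 CPM. All S9-JAG1+ libraries lay below all others and all S9-Pαhi libraries above, while OCP replicate 2 lay below the S9-SCA-1+ libraries. The LMP populations thus stood at the ends, and the difference between them was the only one of the 10 pairs called for Igfbp4 (2.49-fold, log2 fold change 1.32, SE 0.13, adjusted p = 5.63e-06, edgeR quasi-likelihood test, Benjamini-Hochberg adjustment). Against the mean of the other 4, S9-Pαhi LMPs (1394 ± 104 CPM) had 0.80 (SE 0.10, adjusted p = 7.69e-05, same test) and S9-JAG1+ LMPs (560.1 ± 79.6 CPM) -0.85 (SE 0.11, adjusted p = 2.54e-05, same test), both under the limit for a call. Every neighbouring step in its order passed the adjusted p except that from OCPs to S9-SCA-1+ cells (0.22, SE 0.14, adjusted p = 0.248, same test).

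Igfbp7 and Igfbp6 were scarce. Igfbp7 was at 1.84, 2.31 and 2.70 CPM in S9-JAG1+ LMPs, from 17 to 68 counts in the 14 libraries. It was at 1.34, 1.28 and 1.25 CPM in S9-Pαhi LMPs, 0.690, 1.33 and 0.940 CPM in OCPs and 1.28, 1.23 and 1.22 CPM in chondroblasts. The S9-SCA-1+ libraries had 1.504 and 1.75 CPM. The S9-JAG1+ libraries were the highest, with no overlap, whereas they were the lowest for Igf1, Igfbp2, Igfbp3 and Igfbp4. Igfbp7 was called in 1 pair, lower in OCPs than in S9-JAG1+ LMPs (log2 fold change -1.22, SE 0.25, adjusted p = 0.00171, edgeR quasi-likelihood test, Benjamini-Hochberg adjustment), and this call was lost without OCP replicate 1 (-1.02) or S9-JAG1+ replicate 3 (-1.09) and with library totals (-1.16). Of its exon bases 7.03% overlap Polr2b on the opposite strand, and whether the counting used strand is not given in the sources used here, so reads of that abundant gene could be among its counts. Polr2b, like Igfbp7, was highest in S9-JAG1+ LMPs, at 237 to 242 CPM against 158 to 231 CPM elsewhere. The part of such reads in the Igfbp7 levels was not tested. Igfbp6 had 10, 5 and 13 counts in OCPs and 8, 8 and 7 in chondroblasts. It had 3, 5 and 0 counts in S9-Pαhi LMPs, 0, 0 and 1 in S9-JAG1+ LMPs, and 3 in each S9-SCA-1+ library. All OCP and chondroblast libraries were above 3 counts, and 1 library of the other populations was.

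Levels of different genes were compared as CPM per kilobase of exon, with the exon lengths of the count table. On this scale the 6 binding protein genes together stood at 324 ± 49.7 in S9-JAG1+ LMPs, 529.9 ± 38.1 in S9-SCA-1+ cells (n = 2), 589 ± 79.5 in OCPs, 744 ± 58.7 in S9-Pαhi LMPs and 768 ± 47.5 in chondroblasts (SD, n = 3). The receptor gene Igf1r was at 22.1 to 35.0 in the population means on the same scale, and Igf1 at 0.757 to 10.7. Igfbp4 made up the largest share of the binding protein sum in each population, from 69.2% ± 6.75 in chondroblasts, 69.5% ± 0.144 in S9-SCA-1+ cells and 72.3% ± 3.95 in OCPs to 83.8% ± 0.910 in S9-JAG1+ LMPs and 90.7% ± 0.765 in S9-Pαhi LMPs. Next to it came Igfbp2 in 4 of the populations, with 23.6% ± 0.0189 in S9-SCA-1+ cells and 19.0% ± 1.43 in OCPs, and Igfbp5 in chondroblasts, with 17.9% ± 4.09 against 1.0085% ± 0.0716 in S9-Pαhi LMPs. S9-Pαhi LMPs and chondroblasts thus had sums that overlapped between libraries (698 to 810.2 and 713 to 798) with a different make-up. These shares are descriptions, and no test was made of them.

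**Figure D3:**
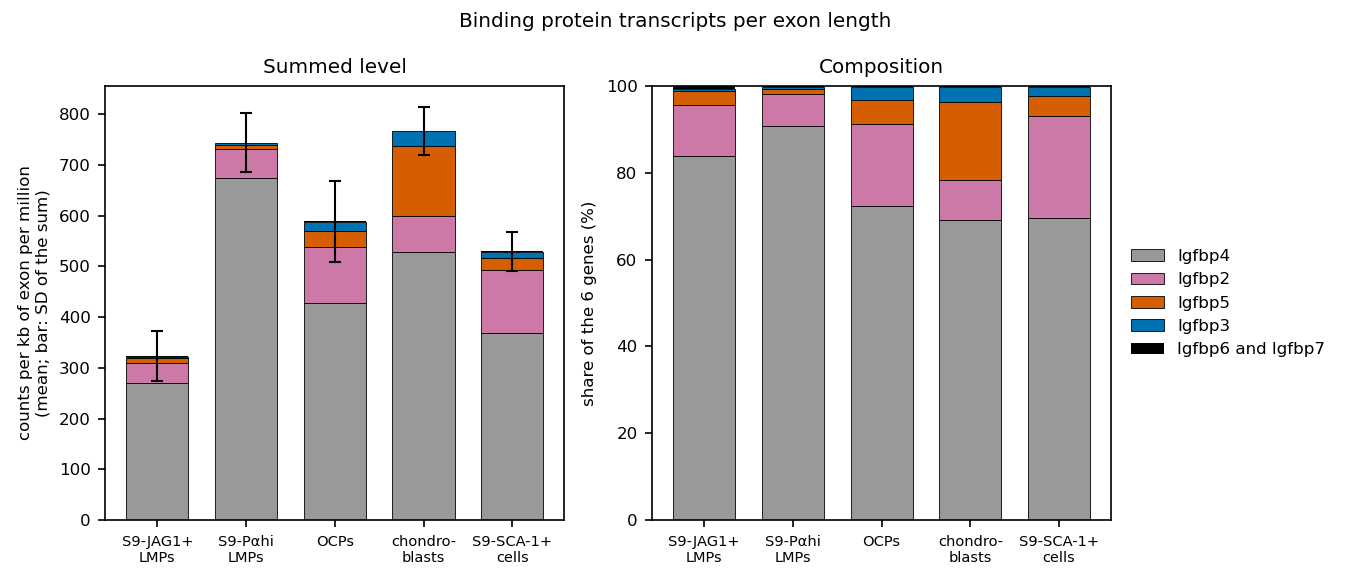
Binding protein transcripts per population, on the left as the mean summed level in CPM per kilobase of exon (bar: SD of the sum) and on the right as the mean share of each gene in the sum of 6. Igfbp4 takes 69.2% to 90.7% everywhere, and Igfbp5 takes 17.9% in chondroblasts.

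The rest of the pathway was described through 65 genes in 6 lists, of which 60 were tested and 27 (45%) were called in the joint test, against 29.2% of all tested genes. Of the ligand, carrier and receptor genes outside the members, 5 of 8 were tested, and Igfbp1, Igfals and the insulin gene Ins2 did not pass the filter. Igf2, the other ligand, had 2489 ± 459 CPM in S9-JAG1+ LMPs, 3544 ± 391 in S9-SCA-1+ cells, 5545 ± 110 in S9-Pαhi LMPs, 5864 ± 1654 in OCPs and 6412 ± 338 in chondroblasts. Its log2 fold change in S9-JAG1+ LMPs was -1.07 (SE 0.15, adjusted p = 5.74e-05, edgeR quasi-likelihood test, Benjamini-Hochberg adjustment), and so missed the fold change limit. Per kilobase Igf2 stood at 549.6 to 1416 in the population means, above Igf1 in all 5 populations. Igf2r, which encodes the receptor that clears IGF2, had means of 324 to 441 CPM, and the insulin receptor gene Insr of 76.4 to 89.96 CPM, and neither was called in any of the 5 comparisons with the other populations. Insrr, a relative of the insulin receptor gene, had 1.10 ± 0.351 CPM in chondroblasts and means of 0.0562 to 0.370 CPM elsewhere, near the counting limit. Igfbpl1, which encodes a binding protein-like secreted protein, was lower in S9-SCA-1+ cells (0.493 ± 0.143 CPM, against means of 1.08 to 2.23 CPM; log2 fold change -1.64, SE 0.38, adjusted p = 0.00377, edgeR).

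Genes for proteases of the binding proteins and for their inhibitors were called in 7 of 8 tested cases in the joint test, beside 29.2% of all tested genes. Pappa, whose product cuts IGFBP4 and so frees IGF, was called in 4 populations. It had 0.892 ± 0.393 CPM in S9-JAG1+ LMPs and 0.810 ± 0.289 in S9-SCA-1+ cells, against 5.27 ± 2.47 in S9-Pαhi LMPs, 11.1 ± 1.91 in OCPs and 17.0 ± 3.17 in chondroblasts. The log2 fold change of Pappa was -2.59 (SE 0.36) in S9-JAG1+ LMPs, -2.75 (SE 0.42) in S9-SCA-1+ cells, 1.97 (SE 0.25) in OCPs and 2.73 (SE 0.24) in chondroblasts, all with adjusted p of at most 0.00014 (edgeR quasi-likelihood test, Benjamini-Hochberg adjustment). Pappa2 was lower in S9-SCA-1+ cells (-2.17, SE 0.46, adjusted p = 0.00203, same test), where Stc1 (1.496, SE 0.17, adjusted p = 9.90e-06) and Stc2 (2.34, SE 0.34, adjusted p = 8.19e-05), which encode inhibitors of these proteases, were higher. Stc2 was lower in chondroblasts (-1.63, SE 0.41, adjusted p = 0.00380, same test). Adam12, the gene of a membrane protease that can cut IGFBP3 and IGFBP5, had 29.1 ± 1.03 CPM as the S9-SCA-1+ mean and 1.88 ± 0.695 as that of S9-JAG1+ LMPs, the highest and lowest means, both called (2.57, SE 0.16, adjusted p = 2.84e-08, and -2.37, SE 0.21, adjusted p = 9.50e-07, same test). The HTRA serine protease genes were each higher in a single population, Htra1 in S9-Pαhi LMPs (2.81 ± 0.678 CPM; 2.03, SE 0.29, adjusted p = 0.000317, same test) and Htra3 in chondroblasts (3.76 ± 1.23 CPM; 3.02, SE 0.25, adjusted p = 2.49e-07, same test). Htra3 was lower in S9-Pαhi LMPs (-1.28, SE 0.36) and Htra1 in S9-SCA-1+ cells (-1.23, SE 0.44). Ctsd was not called.

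**Figure D4:**
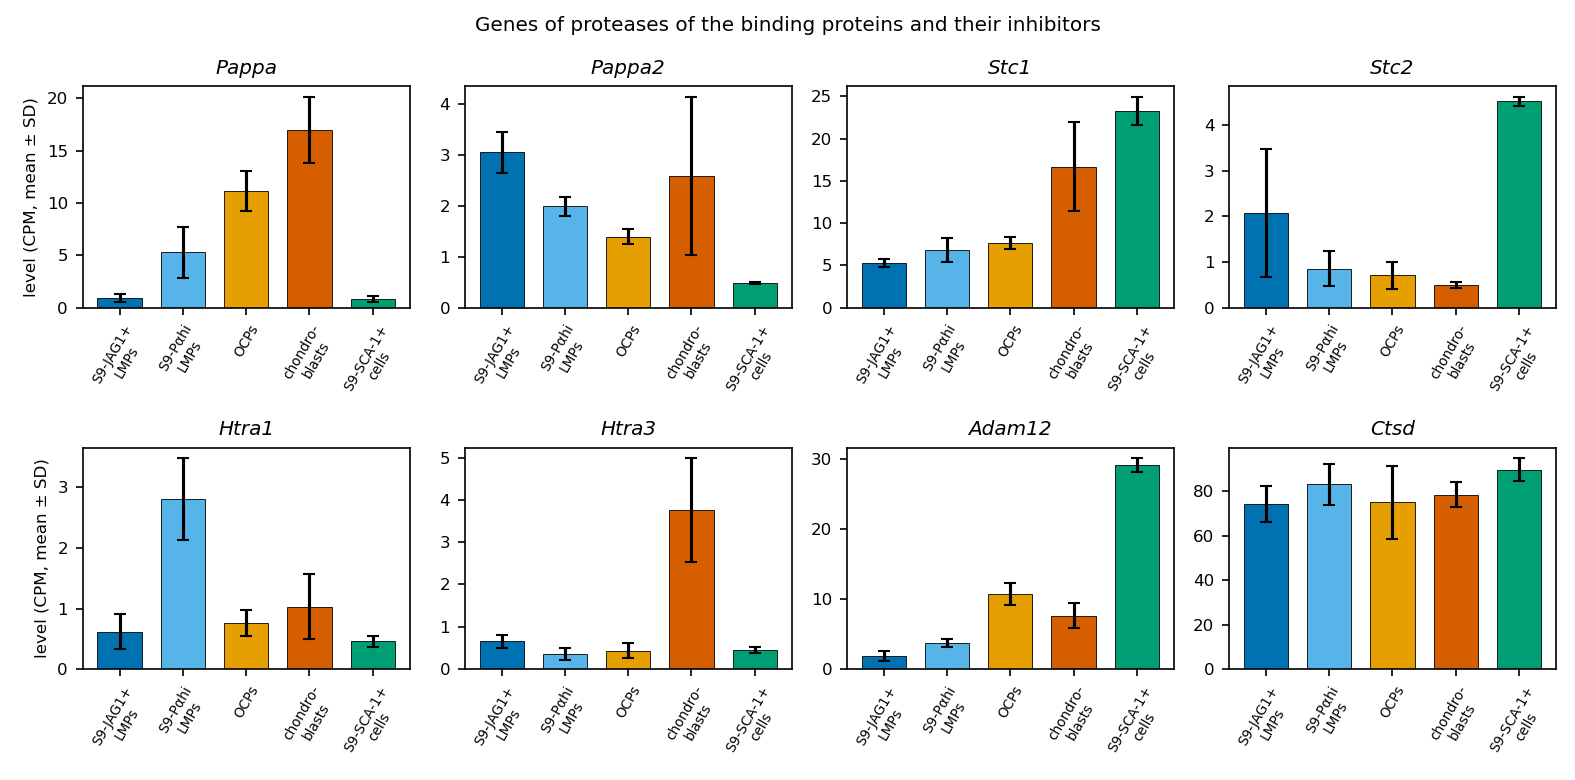
Level in CPM (mean ± SD, linear axes, n = 3, S9-SCA-1+ cells n = 2) of the 8 tested genes for proteases of the binding proteins and their inhibitors. Pappa is highest in chondroblasts at 17.0 CPM and under 1 CPM in S9-JAG1+ LMPs and S9-SCA-1+ cells, Adam12 and Stc2 are highest in S9-SCA-1+ cells, Htra1 in S9-Pαhi LMPs and Htra3 in chondroblasts.

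Genes downstream of the receptor were described in the same way. Of 13 tested adaptor and kinase genes 6 were called in the joint test, and of 25 genes of PI3K, AKT and mTOR signalling 4 were, beside 29.2% of all tested genes. Socs2, which encodes a feedback inhibitor of growth hormone and IGF signalling, was at 81.5 ± 6.41 CPM in S9-JAG1+ LMPs against means of 11.7 to 20.8 CPM elsewhere (log2 fold change 2.44, SE 0.08, adjusted p = 5.15e-11, edgeR quasi-likelihood test, Benjamini-Hochberg adjustment). Grb14, the gene of an adaptor that inhibits the insulin receptor, was lower in S9-JAG1+ LMPs (-2.37, SE 0.21, adjusted p = 7.28e-07, same test) and higher in S9-SCA-1+ cells (3.30, SE 0.15, adjusted p = 5.13e-10, same test). In S9-SCA-1+ cells Pik3r1, the gene of a regulatory subunit of PI3K, was at 58.4 ± 0.702 CPM against 15.3 to 29.5 CPM (1.51, SE 0.08), and Inpp4b, whose product removes a phosphate from PI3K lipids, at 51.7 ± 5.30 CPM against 6.87 to 19.1 CPM (2.02, SE 0.16). Inpp4b was lower in S9-Pαhi LMPs (-1.62, SE 0.19). Of the 4 genes of the growth hormone axis 3 were called jointly. Ghr, the growth hormone receptor gene, was higher in chondroblasts (55.8 ± 2.48 CPM; 1.49, SE 0.10) and lower in S9-SCA-1+ cells (10.3 ± 0.293 CPM; -1.56, SE 0.14), and the transcription factor gene Stat5a was higher in S9-SCA-1+ cells (1.33, SE 0.11). Of the 5 CCN genes, whose secreted products share the amino-terminal domain of the binding proteins, 4 were called higher in OCPs (3.37% of all tested genes), with log2 fold changes of 1.28 (SE 0.26) for Ccn1, 1.81 (SE 0.20) for Ccn2 and 1.24 (SE 0.25) for Ccn4, and Ccn3 near the counting limit at 0.304 ± 0.105 CPM. Ccn4 was higher in chondroblasts too (2.03, SE 0.23), where replicates spread from 9.35 to 31.2 CPM. In S9-JAG1+ LMPs Ccn1 (-1.60, SE 0.32) and Ccn4 (-1.70, SE 0.31) were lower, and in S9-SCA-1+ cells Ccn2 (-1.82, SE 0.30) and Ccn4 (-1.84, SE 0.37).

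Genes with patterns like those of the members were sought by Pearson's r of log2 CPM over the 14 libraries among genes with an average of at least 1 log2 CPM. These values describe 14 libraries that share 5 populations and carry no test. For Igf1 the closest were Ror1 (r = 0.97), Taf9b (0.95) and Nrk (0.95), and Ror1, a receptor for WNT5A, had 10.3 ± 6.505 CPM in S9-JAG1+ LMPs and 86.4 ± 7.69 in OCPs. Igf1r had Fndc3a, Zbtb38 and Eci2 (0.90 to 0.91), whose ranges were narrow as well, with Fndc3a between 126 ± 11.9 CPM in S9-Pαhi LMPs and 176 ± 10.04 in chondroblasts. For Igfbp2 they were Epb41l4a, Pde8a and Myo5b (0.94 to 0.95), for Igfbp3 Plekhg1, Prss23 and the WNT ligand gene Wnt9a (0.97 to 0.98), and for Igfbp4 Lsp1, Spg20 and Cntfr (0.92 to 0.93). Cntfr, which encodes the receptor of ciliary neurotrophic factor, had 89.6 ± 18.9 CPM in S9-Pαhi LMPs and 11.8 ± 5.05 in S9-JAG1+ LMPs. For Igfbp5 the closest were Tgfbi (0.95), Vwa5a (0.95) and Cthrc1 (0.94), and Tgfbi, the gene of a secreted matrix protein, had 129 ± 11.6 CPM in chondroblasts against means of 31.0 to 62.8 elsewhere. Igfbp7 had Pawr, Lrrfip1 and Slc16a6 (0.91 to 0.92). None are given for Igfbp6, which was mostly near the counting limit.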

How the data were processed

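RNA-seq libraries of 5 sorted populations of mouse forelimb bud cells were analysed (14 libraries). The counts were made by the authors, who aligned single reads to mm10 with STAR, kept 1 position for a read that matched several, and counted reads per RefSeq gene with QuasR before they deposited the table. Whether strand was used is not given in the sources used here. The table held 24454 Entrez identifiers, of which 24374 matched a gene symbol, and the 80 others held 0.358% of counts. From these counts edgeR 4.0.16 (limma 3.58.1, R 4.3.3) computed TMM-scaled CPM, a quasi-likelihood fit with a mean per population, and Benjamini-Hochberg adjusted p over all 15125 genes kept by its low-count filter. The biological coefficient of variation was 13.4%. Contrasts set each population against the other 4 averaged on the log2 scale and against each of them alone, beside a joint test of all 5. Replicates differed by more than sampling noise (chi-square over degrees of freedom 8.20 to 81.1 in 13 replicate pairs). Alternatives were DESeq2 1.42.0, other scalings, filters and limits, a replicate block, and libraries or populations left out. The scripts (Python 3.11.15, pandas 2.3.3, matplotlib 3.10.9) were tested on simulated data. Named were all members, the called genes of the pathway lists, at most 5 a list and population, and the 3 genes closest in pattern to each member but Igfbp6, left out for its low counts. The members and lists were chosen with earlier results of these data known. Sequences came from RefSeq (GRCm38.p6) and GENCODE M21.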

Additional observations from a re-analysis of the deposited data

How the results depend on the processing

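Over 105 log2 fold changes of the 7 members without Igfbp6, leaving out 1 library at a time gave 1427 values with the same call and direction, 19 that lost a call, 15 that gained one and 9 that reversed. Counts of called members, here with Igfbp6 wherever it passed the filter, then ranged from 3 to 5 in S9-JAG1+ LMPs, 1 to 2 in S9-Pαhi LMPs, 2 to 3 in OCPs, 2 to 4 in chondroblasts, 0 to 0 in S9-SCA-1+ cells, 5 to 7 jointly and 24 to 31 over the pairs. The lowest joint count came without OCP replicate 1 and the lowest pair count without OCP replicate 3. The filter on low counts was rerun each time, and Igfbp6 passed it only through these 2 libraries (10 and 13 counts). Without either of them Igfbp6 was not tested, and its 4 pair calls left the counts. These low ends therefore say little about the other members. The count in S9-Pαhi LMPs was 2 without OCP replicate 1, chondroblast replicate 3, S9-Pαhi replicate 1 or 2, or S9-SCA-1+ replicate 3. The count in S9-Pαhi LMPs was 2 with library totals, and without a fold change limit the counts were 7, 5, 5, 6 and 3 in that order of populations and 54 over the pairs. All reversals were of values not called: Igfbp2 in chondroblasts against the other populations (-0.056), with library totals 0.047, without S9-SCA-1+ cells 0.19 and with 1 library left out -0.22 to 0.059. Igfbp7 in chondroblasts minus S9-Pαhi LMPs (-0.053) was 0.053 with library totals. Igfbp4 in OCPs (-0.02) was 0.069 at E10.5 alone and -0.11 to 0.13 with 1 library left out, and Igf1r in OCPs (0.034) was -0.027 without S9-SCA-1+ cells and -0.011 to 0.077 with 1 library left out. Igfbp5 in S9-SCA-1+ cells (-0.05) was 0.78 at E10.5 alone and -0.13 to 0.23 with 1 library left out. With 1 library left out, Igfbp5 in S9-Pαhi minus S9-JAG1+ LMPs ranged from -0.89 to 0.56, Igf1 in chondroblasts minus S9-Pαhi LMPs from -0.060 to 0.61 and Igf1r in S9-SCA-1+ cells minus S9-Pαhi LMPs from -0.0035 to 0.32. Apart from the loss of Igfbp6 from the tested genes, the cause of these changes was not tested.

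No pairing by replicate number was seen over the libraries as a whole. Deviations of same-numbered libraries correlated with r of -0.181 to 0.308 over 26 pairs (median -0.00476), and 5 of 14 libraries correlated best with their own number. In 4 of the 26 pairs r was above 0.1. The highest were OCPs with S9-JAG1+ LMPs in replicate 1 (0.308) and OCPs with S9-Pαhi LMPs in replicate 2 (0.286). Deviations from means of so few libraries cannot exclude pools shared by some populations. With the replicate block, 28 pair combinations were called against 29 (both with Igfbp6). Gained were Igfbp5 in S9-SCA-1+ cells minus S9-JAG1+ LMPs (1.46) and Igfbp2 in S9-SCA-1+ cells minus S9-Pαhi LMPs (1.22), and lost were Igf1 (-0.96) and Igfbp3 (-1.18) in S9-SCA-1+ cells minus chondroblasts. The count in S9-Pαhi LMPs was 2, with Igfbp3 gained (-1.21), and Igfbp5 in S9-SCA-1+ cells against the other populations was 0.17.

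Library totals in place of TMM moved the median of all genes by 0.12 in chondroblasts minus S9-JAG1+ LMPs and by 0.11 in chondroblasts minus S9-Pαhi LMPs. Counting depth limits Igfbp6 in all libraries, and S9-SCA-1+ cells rest on 2 libraries.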
